A study of Mus musculus with 4 samples.

Results

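The genes described here are the Wnt ligands, their receptors, their antagonists and the intracellular regulators and targets of the pathway, read in brain RNA of mouse embryos at embryonic day 15. Members were chosen by name: protein-coding rows for the Wnt, Fzd, Sfrp, Dkk, Lrp5/6, Axin, Nkd and Lgr4/5/6 families, plus 11 single genes of the pathway. Wnt3a, Wnt2b and Wnt8b were left out by the same rule. This gave 49 members among the 20421 genes of the table. A further 5 genes of these families in the reference annotation (Dkk4, Wnt8a, Wnt9b, Wnt10b and Wnt16) were not analysed here.

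Embryos carried the label FOXM1f/+;Nestin-Cre or WT, all on the C57BL/6 strain. Nestin-Cre expresses Cre recombinase in neural progenitors, and the study's title names the human FOXM1 gene, which encodes a transcription factor of the cell cycle. GEO lists 4 samples, 2 for each genotype, but the table has 1 count column per genotype, and neither column says which sample or how many embryos it holds. The design text speaks of triplicates. The title of one WT sample names nestin and that of the other foxm1, so it is not clear which alleles the WT animals carried. Below, the FOXM1f/+;Nestin-Cre column is named the FOXM1 library and the other one the WT library.

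The FOXM1 library had 17856653 reads and the WT library 17543705 reads over all genes. With 1 column per genotype there is no replicate, no test was made, and every ratio below compares these 2 libraries. Each ratio is the FOXM1 over the WT value in CPM, the count scaled to a common library total, followed in brackets by its 95% exact interval, which covers counting error only. Neuronal markers were abundant in both libraries, as in brain tissue, with Tubb3 at 2903 CPM in the FOXM1 and 2947 CPM in the WT library. The libraries also differed in sex-linked RNA, with 9628 and 5 reads of Xist and 0 and 773 reads of the Y-linked gene Kdm5d in the FOXM1 and the WT library, so genotype and sex content cannot be told apart. The mouse Foxm1 row had 1289 reads in the FOXM1 and 1139 in the WT library, a ratio of 1.11 (1.03 to 1.21), and a human transgene was not analysed here.

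Wnt proteins are lipid-modified secreted signals that bind a Frizzled receptor together with the co-receptor Lrp5 or Lrp6. In the canonical branch this stops a complex of Axin, Apc and kinases from destroying beta-catenin, which then enters the nucleus and activates genes with Tcf and Lef factors. In the embryonic forebrain the pathway is known for its part in dorsal patterning, in progenitor division and in the growth of brain vessels.

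Tcf and Lef factors recognise short DNA sites that start with CTTTG, and the promoters of 3 commonly used readouts of the pathway are shown first. Sp5 is a zinc finger factor induced by Wnt signals, Lef1 is both a factor and a target, and Axin2 encodes a feedback inhibitor. Each stretch runs from 250 bases before to 50 bases after a transcript start, from RefSeq on GRCm38.p6. Capitals mark CTTTGAA or CTTTGAT and also CTTTGTA or CTTTGTT on either strand, a site on the other strand being printed as its reverse complement. The Sp5 stretch is chr2:70474673-70474972, plus strand. The Lef1 stretch is chr3:131156044-131156343, plus strand, and lies at the only 1 of 4 listed Lef1 starts with a match, inside the gene. The Axin2 stretch is chr11:108920099-108920398, plus strand, and is given as the target without a match in its window.
Sp5: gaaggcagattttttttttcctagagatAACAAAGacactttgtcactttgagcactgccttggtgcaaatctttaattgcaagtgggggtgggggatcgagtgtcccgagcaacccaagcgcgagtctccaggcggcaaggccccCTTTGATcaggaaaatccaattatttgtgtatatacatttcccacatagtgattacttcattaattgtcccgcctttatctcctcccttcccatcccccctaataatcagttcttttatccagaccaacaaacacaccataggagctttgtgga
Lef1: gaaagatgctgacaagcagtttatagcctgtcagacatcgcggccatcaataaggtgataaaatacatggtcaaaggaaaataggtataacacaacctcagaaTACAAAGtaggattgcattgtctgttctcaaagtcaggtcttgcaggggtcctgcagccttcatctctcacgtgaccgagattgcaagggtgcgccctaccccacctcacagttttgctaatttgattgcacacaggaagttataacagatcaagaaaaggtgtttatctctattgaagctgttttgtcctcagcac
Axin2: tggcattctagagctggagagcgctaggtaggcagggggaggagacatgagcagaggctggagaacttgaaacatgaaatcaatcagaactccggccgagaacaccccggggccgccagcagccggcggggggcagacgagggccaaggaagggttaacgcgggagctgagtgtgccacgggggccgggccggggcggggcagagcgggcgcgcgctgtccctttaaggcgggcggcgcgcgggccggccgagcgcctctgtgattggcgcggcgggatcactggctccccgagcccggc

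Sp5 had 2 matches, at positions -222 and -104 from its start, and Lef1 had 1, at -147 from the start shown. Of the 49 members, 31 had a window in the promoter table, and 7 of these 31 (22.6%) had a match in at least 1 of their windows, against 18.9% of the 27025 genes in that table. Beside Sp5 and Lef1 these were Dkk1, with 2 matches, and Fzd7, Wnt5b, Wnt11 and Wnt3 with 1 each. A match is a run of letters and not a site shown to be bound.

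Of the 49 members, 40 averaged 1 CPM or more over the 2 libraries and were compared, as were 14557 genes of the table. In the FOXM1 library 0 members were at least 2-fold higher, against 0.522% of all genes, and 2 members, Wnt4 and Wif1, were at least 2-fold lower, against 1.83% of all genes. Wif1 passed the minimum through the WT library, being under 1 CPM in the FOXM1 library, and with 1 CPM asked of both libraries 1 member, Wnt4, was lower. At 1.5-fold the counts were 2 higher (Sfrp4 and Wnt10a) and 3 lower (Wnt4, Wif1 and Rnf43), with 2.53% and 5.23% of all genes. Wnt10a was under 1 CPM in the WT library and Rnf43 in the FOXM1 library. Like Wif1, each of them passed the minimum only through the library where it was higher. Intervals lay wholly above 1 for 12 members and wholly below 1 for 4, while 24 spanned 1. Of all genes 16.5% had intervals above 1 and 19.2% below, where 30% and 10% of the members did. How often an interval leaves 1 depends on read number, and 22 of the 40 members averaged 10 CPM or more, as did 10138 of the 14557 genes. Of the 49 members 11, Wnt7b, Lef1, Tcf7l1, Axin2 and Notum among them, share exon bases with a gene on the other strand. The strand setting of the counting is not known, so reads from those bases may be counted too high or too low. The members' median log2 ratio was 0.11, and that of all genes was -0.01.

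**Figure D1:**
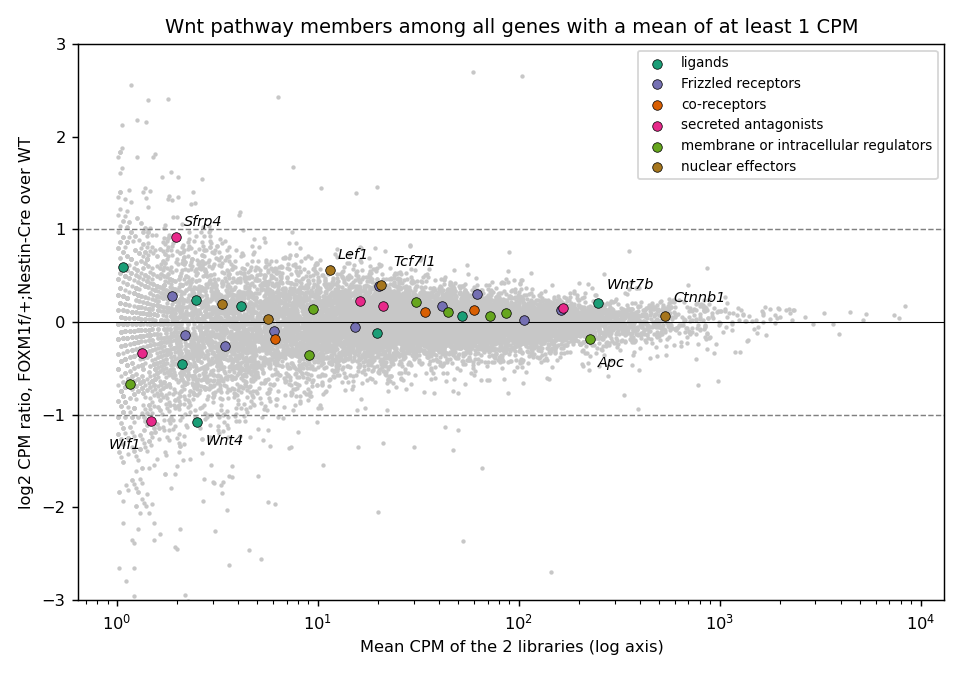
Each point is a gene averaging 1 CPM or more, by mean CPM of the 2 libraries (horizontal log axis) and log2 ratio of the FOXM1 over the WT library (vertical axis). Coloured points are the 40 members by role, dashed lines mark 2-fold, and genes past the ends of the vertical axis or with 0 reads in a library are not drawn. Wnt4 and Wif1 lie below the lower dashed line, and no member lies above the upper one.

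Levels of different members are compared per length, as RPKM (CPM per kilobase of exon), with exon lengths from GENCODE M21. On this scale 1 ligand, Wnt7b, held most of the ligand signal: 70.0% of the summed ligand RPKM in the FOXM1 and 67.1% in the WT library. Wnt7a followed with 21.5% and 22.7%. Among Frizzled receptors the signal was spread more widely, with Fzd2 first at 35.5% in the FOXM1 and 38.6% in the WT library. Fzd1 held 19.9% and 17.8%, and Fzd3 16.1% and 16.2%. Secreted antagonists were again led by 1 gene, Sfrp1, at 70.8% in the FOXM1 and 70.2% in the WT library, followed by Sfrp2 at 14.4% and 13.5%. In these 3 classes the summed RPKM differed by a like ratio, 1.10 for ligands (77.8 and 70.6 RPKM in the FOXM1 and the WT library), 1.10 for Frizzled receptors (81.9 and 74.3) and 1.10 for secreted antagonists (56.8 and 51.6).

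**Figure D2:**
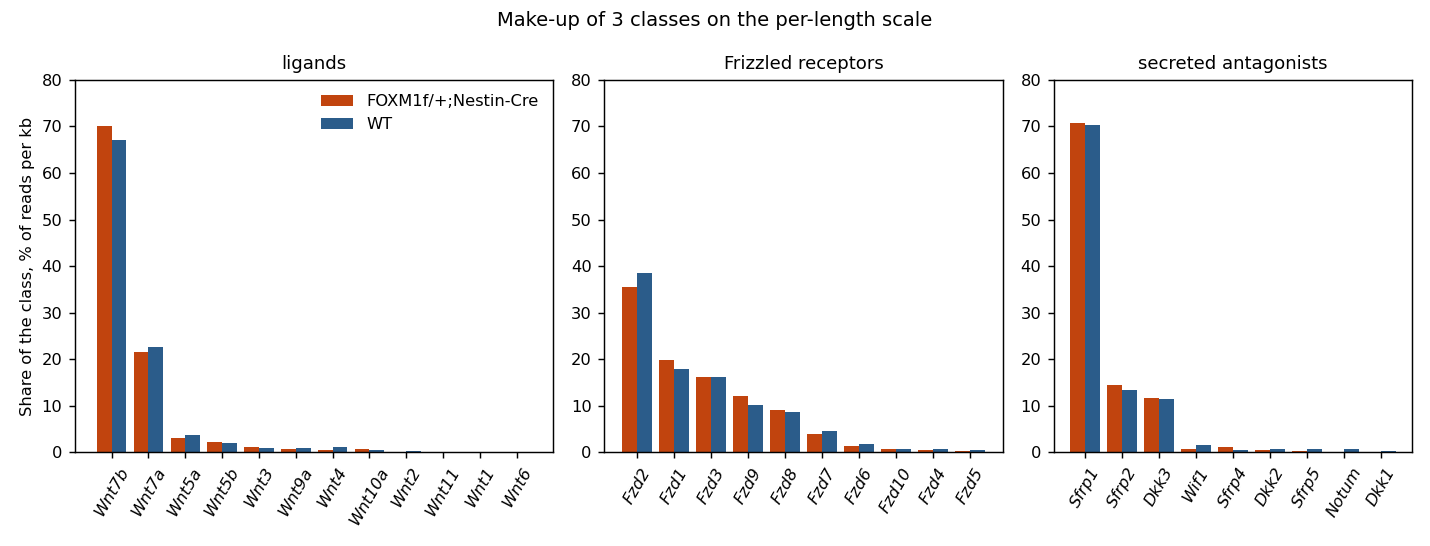
Bars give each gene's share of the summed reads per kilobase of its class, in percent, in the FOXM1 library (left bar of each pair) and the WT library (right bar). Wnt7b and Sfrp1 hold about as large a share of their class in either library, and Fzd2 leads the Frizzled receptors in both.

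Among the ligands, Wnt7b was higher in the FOXM1 library. It is a ligand made by forebrain progenitors and neurons that acts on brain vessels, and lies on chromosome 15 from 85535439 to 85581821 (GRCm38). It had 4766 reads in the FOXM1 library and 4072 in the WT library, or 267 and 232 CPM, a ratio of 1.15 (1.10 to 1.20). Wnt7a, its close relative, had 53.1 and 50.9 CPM, a ratio of 1.04 (0.951 to 1.14). Read within each library, the ratio of Wnt7b to Wnt7a per length was 3.26 in the FOXM1 and 2.95 in the WT library. These give a ratio of ratios of 1.10 (0.996 to 1.22), an interval that spans 1.

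The non-canonical ligand Wnt5a, which acts through Ror and Ryk receptors on cell polarity and axons, had 339 reads in the FOXM1 and 361 in the WT library, or 19.0 and 20.6 CPM. Its ratio was 0.923 (0.793 to 1.07). Wnt5b had 79 and 69 reads and Wnt3 48 and 40 reads, both with intervals that span 1. Wnt9a had 32 reads in the FOXM1 and 43 in the WT library, again within counting error.

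Wnt4 stood at the low end of the ligands. It is best known from kidney and ovary formation and lies on chromosome 4 from 137277489 to 137299726. There were 29 reads in the FOXM1 library and 60 in the WT library, or 1.62 and 3.42 CPM, a 2.11-fold lower level (1.33 to 3.40). At the other end, Wnt10a had 23 and 15 reads, or 1.29 and 0.855 CPM, a ratio of 1.51 whose interval (0.753 to 3.11) spans 1. The remaining ligands had too few reads for the comparison. Wnt2, known from lung and vessel growth, had 0 reads in the FOXM1 library, which allows up to 0.168 CPM, against 7 reads (0.399 CPM) in the WT library, and was at least 2.37-fold lower against a floor of 3 counts. That bound takes the 7 WT reads as exact, and the interval that also counts their error allows a level only 1.47-fold lower. Wnt11, a ligand of cell movement and kidney branching, had 1 and 10 reads, a ratio of 0.0983 (0.00226 to 0.691). For Wnt1, the signal of the midbrain-hindbrain boundary, there were 5 reads in the FOXM1 and 1 in the WT library, and for Wnt6 1 and 3, with intervals that span 1.

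**Figure D3:**
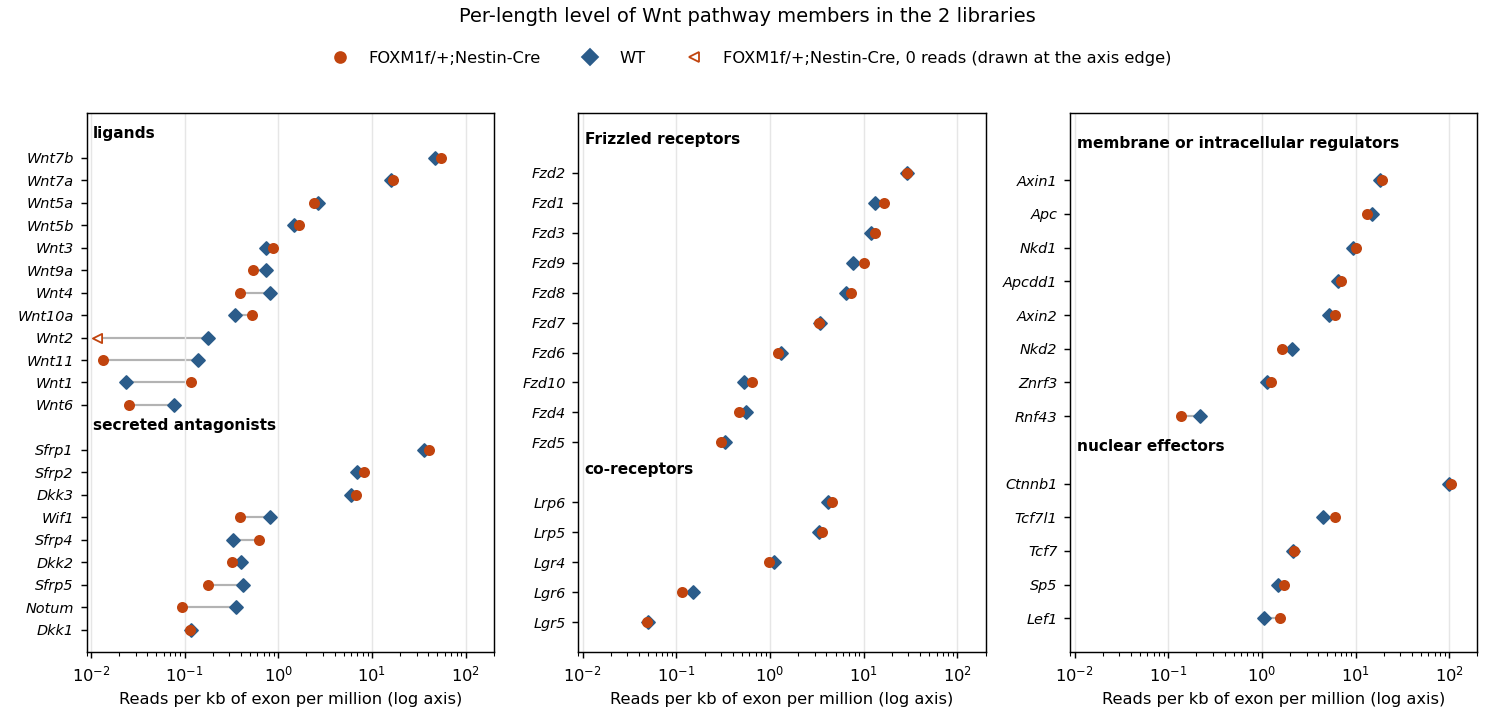
Each row is a member, with its level in RPKM on a log axis, in the FOXM1 library (circles) and the WT library (diamonds). Levels range from 105 RPKM for Ctnnb1 in the FOXM1 library down to 0 reads for Wnt2, drawn as an open triangle at the axis edge, and most pairs of symbols lie close together.

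All 10 Frizzled receptors of the table passed the minimum of 1 CPM, and 4 of them (40%) had intervals above 1 and 0 below, beside 16.5% and 19.2% of all genes. These 10 genes encode receptors with 7 membrane passes, and 6 of them have their exons in 1 uninterrupted block. Fzd3, a receptor needed for axon tracts and tissue polarity, had the most reads, 3018 in the FOXM1 and 2711 in the WT library, or 169 and 154 CPM. Its ratio was 1.09 (1.04 to 1.15). Fzd1 had 1224 and 976 reads, or 68.5 and 55.6 CPM, a ratio of 1.23 (1.13 to 1.34). Fzd9, a receptor of neural progenitors, had 409 and 307 reads, or 9.99 and 7.63 RPKM, and the highest ratio of the family at 1.31 (1.13 to 1.52). Fzd8 had 788 reads in the FOXM1 and 685 in the WT library, a ratio of 1.13 (1.02 to 1.25).

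The most abundant receptor per length, Fzd2, had 1903 reads in the FOXM1 and 1842 in the WT library, or 29.1 and 28.7 RPKM, a ratio of 1.02 (0.952 to 1.08). Fzd7, of the same subfamily as Fzd1 and Fzd2, had 269 and 274 reads. Set against both relatives within a library, Fzd1 was higher in the FOXM1 library. The ratio of ratios was 1.21 (1.09 to 1.35) against Fzd2 and 1.28 (1.05 to 1.55) against Fzd7, values that do not depend on the scaling of the libraries. Fzd4, the norrin receptor of vessels, had 56 reads in the FOXM1 and 66 in the WT library. Set against its relatives, Fzd9 had a ratio of ratios of 1.57 (1.05 to 2.36) over Fzd4 and of 1.08 (0.629 to 1.84) over Fzd10, an interval that spans 1. Fzd5, Fzd6 and Fzd10 had between 37 and 105 reads in the FOXM1 library and between 30 and 110 reads in the WT library, with intervals that span 1.

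Of the 3 compared co-receptors 1 had an interval above 1 (33.3%) and 0 below, beside 16.5% and 19.2% of all genes. Lrp6 had 1120 reads in the FOXM1 library and 1006 in the WT library, or 62.7 and 57.3 CPM, a ratio of 1.09 (1.004 to 1.19). Lrp5 had 631 and 574 reads, or 35.3 and 32.7 CPM, with a ratio of 1.08 (0.963 to 1.21), and the ratio of Lrp6 to Lrp5 differed by 1.01 (0.877 to 1.17). Lgr4, a receptor for R-spondins that enhance Wnt signals, had 103 and 115 reads. Its relatives Lgr5 and Lgr6 were under the minimum, with 9 and 14 reads in the FOXM1 and 9 and 18 in the WT library.

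Of the 6 compared secreted antagonists 2 had intervals above 1 (33.3%) and 1 below (16.7%), beside 16.5% and 19.2% of all genes. Sfrp1, which binds Wnt proteins and is made by cortical progenitors, had 3140 reads in the FOXM1 library and 2778 in the WT library, or 176 and 158 CPM. Its ratio was 1.11 (1.06 to 1.17). Sfrp2 had 314 and 263 reads, a ratio of 1.17 (0.993 to 1.39), and the divergent family member Dkk3 had 402 and 351 reads, a ratio of 1.13 (0.973 to 1.30). Sfrp4, on chromosome 13 from 19623104 to 19632994, had the highest ratio of all 40 members. It had 46 reads in the FOXM1 and 24 in the WT library, or 2.58 and 1.37 CPM, a ratio of 1.88 (1.13 to 3.23).

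Wif1, which binds Wnt proteins outside the cell, was at the opposite end, with 17 reads in the FOXM1 and 35 in the WT library. That is 0.952 and 1.99 CPM, a 2.10-fold lower level (1.14 to 3.99). Notum, the enzyme that strips the lipid from Wnt proteins, had 4 and 15 reads and was under the minimum, with a ratio of 0.262 (0.0633 to 0.822). Sfrp5 had 6 reads in the FOXM1 and 14 in the WT library, and the Lrp5/6 blockers Dkk2 and Dkk1 had 21 and 26 and 5 and 5 reads, all with intervals that span 1.

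**Figure D4:**
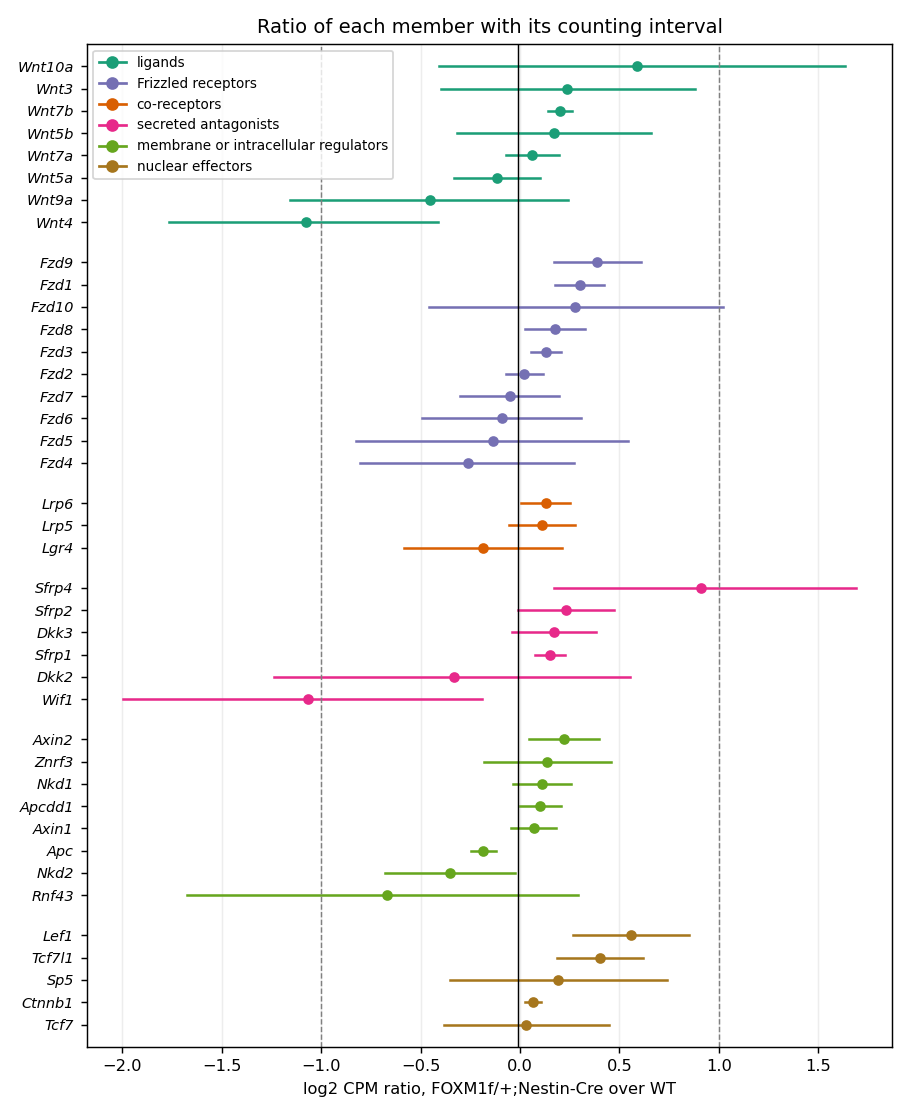
Points are log2 CPM ratios, FOXM1 over WT library, of the 40 compared members, and bars are 95% counting intervals. The black line is the median of all genes and dashed lines mark 2-fold. Wnt4 and Wif1 lie left of the lower dashed line, and Lef1 and Tcf7l1 have intervals wholly to the right of the black line.

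Of the 8 regulators at the membrane or in the cytoplasm, 1 had an interval above 1 (12.5%) and 2 below (25%), near the 16.5% and 19.2% of all genes. Their summed level was 473 CPM in the FOXM1 and 486 CPM in the WT library. Axin2, on chromosome 11 from 108920349 to 108950783, had 593 reads in the FOXM1 and 500 in the WT library, or 33.2 and 28.5 CPM, a ratio of 1.17 (1.03 to 1.31). Axin1, the scaffold that is not a target, had 1323 and 1239 reads, a ratio of 1.05 (0.970 to 1.14), and the ratio of Axin2 to Axin1 differed by 1.11 (0.961 to 1.28). Apc, the destruction complex scaffold that also binds microtubules, was lower. It had 3778 reads in the FOXM1 and 4220 in the WT library, or 212 and 240.5 CPM, a 1.14-fold lower level (1.09 to 1.19).

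The Naked cuticle proteins bind Dishevelled and dampen the signal. Nkd1 had 821 reads in the FOXM1 and 747 in the WT library, a ratio of 1.08 (0.977 to 1.19). Nkd2 had 142 and 178 reads, or 7.95 and 10.1 CPM, a 1.28-fold lower level (1.02 to 1.60), whose interval reached 1 when the libraries were scaled by RLE factors. The ratio of Nkd1 to Nkd2 differed by 1.38 (1.07 to 1.77) between the libraries. Apcdd1, a membrane inhibitor, had 1595 and 1461 reads, a ratio of 1.07 (0.999 to 1.15). Znrf3 and Rnf43, the ubiquitin ligases that remove Frizzled receptors, had 177 and 16 reads in the FOXM1 and 158 and 25 in the WT library. The Rnf43 level was 1.59-fold lower (0.816 to 3.19), with an interval that spans 1.

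Each of the 5 nuclear members had a ratio over 1, as did 7039 of the 14557 genes compared. For 3 of the 5 the interval was wholly above 1, beside 16.5% of all genes. Ctnnb1, beta-catenin itself, was the most abundant member, with 9748 reads in the FOXM1 and 9161 in the WT library, or 546 and 522 CPM, a ratio of 1.05 (1.02 to 1.08). Lef1, on chromosome 3 from 131110471 to 131224356, had 244 and 163 reads, or 13.7 and 9.29 CPM, a ratio of 1.47 (1.20 to 1.80). Tcf7l1, which mostly represses targets, had 420 and 312 reads, or 23.5 and 17.8 CPM, a ratio of 1.32 (1.14 to 1.54). Tcf7 was at nearly one level, with 102 reads in the FOXM1 and 98 in the WT library, a ratio of 1.02 (0.767 to 1.36). Per length, Lef1 stood at 0.715 of the Tcf7 level in the FOXM1 library and 0.497 in the WT library, a ratio of ratios of 1.44 (1.01 to 2.05). Against Tcf7l1 the ratio of ratios was 1.11 (0.863 to 1.43), an interval that spans 1. Sp5, whose promoter is shown above, had 64 and 55 reads, a ratio of 1.14 (0.785 to 1.67).

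In all, 16 pairs of relatives were set against each other within a library, and 5 had an interval of the ratio of ratios that excludes 1. These were Fzd1 over Fzd2, Fzd1 over Fzd7, Fzd9 over Fzd4, Nkd1 over Nkd2 and Lef1 over Tcf7. Fzd1 is in more than 1 of these pairs. How often other pairs of genes exclude 1 was not counted. Among all single genes, 16.5% had intervals above 1 and 19.2% below.

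Progenitor markers were also higher in the FOXM1 library. All marker and gene lists from here on were chosen with earlier results of these data known. Of 8 markers of apical radial glia, the dividing cells that line the ventricle, 6 had intervals above 1 and 0 below, while Pax6 and Slc1a3 spanned 1. For comparison with this and the lists below, 16.5% of all genes had intervals above 1 and 19.2% below. The summed level of the 8 markers was 2220.03 CPM in the FOXM1 and 1816 CPM in the WT library. All 4 markers of basal intermediate progenitors had intervals above 1, with sums of 597 and 488 CPM. Of 6 neuronal markers 0 had intervals above 1 and 4 below, with sums of 6083 and 6451 CPM in the FOXM1 and the WT library. The 12 members with intervals above 1, Fzd1, Fzd9, Sfrp1, Tcf7l1 and Lef1 among them, shared the direction of the progenitor markers. Another 4 members, Wnt4, Wif1, Apc and Nkd2, had intervals below 1, and 24 spanned 1. In bulk tissue more cells of a type and more RNA per cell cannot be told apart, and the part of cell make-up in these ratios was not tested.

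Markers of the choroid plexus, the secretory tissue of the ventricles, were far lower in the FOXM1 library. All 5 compared markers, of 6 listed, were at least 2-fold lower, their sum was 12.8 CPM in the FOXM1 and 707 CPM in the WT library, and no listed marker was at 0 reads. Of the 3 compared hem markers 2 were lower, Lmx1a with 31 and 73 reads and Msx1 with 25 and 82 reads, while Rspo3 had 393 and 335 reads. Of 6 compared markers of pericytes and meninges 4 had intervals below 1 and 0 above, with sums of 83.1 and 107 CPM, and endothelial markers had 2 of 7 below and 0 above, with sums of 128 and 141 CPM. Of the compared members, Wnt4, Wif1, Apc and Nkd2 had intervals below 1, while 12 had intervals above 1 and 24 spanned 1. Wif1 passed the minimum only through the WT library. Among members under the minimum, the intervals of Notum, Wnt2 and Wnt11 lay below 1, on few reads. Those of Wnt1, Wnt6, Sfrp5, Dkk1, Lgr5 and Lgr6 spanned 1. The part of choroid plexus, hem, meninges and vessels in the members' ratios was not tested. Among the other markers, intervals were above 1 for 4 of 6 erythroid genes, with 0 below, and below 1 for 3 of 5 microglial genes and 2 of 4 genes of oligodendrocyte precursors, with 0 above. Thalamic markers had 1 of 7 above and 1 below.

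Other genes of the pathway were taken from lists set by role. The 2 genes of Wnt secretion both had intervals below 1. Wls, the carrier of Wnt proteins to the surface, had 236 reads in the FOXM1 and 325 in the WT library, a 1.40-fold lower level (1.18 to 1.66), and Porcn, which attaches the lipid, had 1073 and 1308 reads, 1.24-fold lower (1.14 to 1.35). R-spondins had 0 of 3 intervals off 1, and the most abundant, Rspo3, had a ratio of 1.15 (0.994 to 1.34). In the list of norrin and Wnt7 signalling to vessels 0 of 4 intervals left 1, with Tspan12 at 337 and 308 reads.

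Of 11 compared genes of planar polarity and non-canonical signalling, 2 had intervals above 1 and 4 below, with a median log2 ratio of 0.01. Their summed level was 588 CPM in the FOXM1 and 584 CPM in the WT library. The named ones were all lower: Dact2, a Dishevelled binding protein, by 1.68-fold (1.19 to 2.40), Vangl1, a polarity protein, by 1.55-fold (1.12 to 2.15), and Prickle2 by 1.35-fold (1.14 to 1.59). Among 11 Dishevelled and destruction complex genes, 2 intervals were above 1 and 4 below, at a median of -0.08. The kinase Gsk3a was 1.18-fold lower (1.11 to 1.25), Dvl3 was 1.16-fold lower (1.08 to 1.24) and the kinase Csnk1e was higher at 1.10 (1.06 to 1.14). Nuclear partners had 1 of 11 intervals above 1 and 3 below, at a median of -0.06. Ctnnbip1, which keeps beta-catenin from Tcf factors, was 1.28-fold lower (1.18 to 1.38).

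Of the 10 compared genes on the list of other reported targets, 5 had intervals above 1 and 1 below, at a median of 0.15. Neurog1, a proneural factor, had 203 reads in the FOXM1 and 124 in the WT library, a ratio of 1.61 (1.28 to 2.03). The cyclin Ccnd2 had 7436 and 5401 reads, a ratio of 1.35 (1.31 to 1.40). Sox17, a factor of vessel cells, was 1.59-fold lower (1.14 to 2.24), with 60 reads in the FOXM1 and 94 in the WT library. Of 4 other extracellular inhibitors 1 interval was above 1 and 2 below. Sostdc1, a Wnt and BMP antagonist, had 18 reads in the FOXM1 and 109 in the WT library. Its level was 6.16-fold lower (3.72 to 10.8), and the Dkk1 receptor Kremen1 had 433 and 328 reads, a ratio of 1.30 (1.12 to 1.502).

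**Figure D5:**
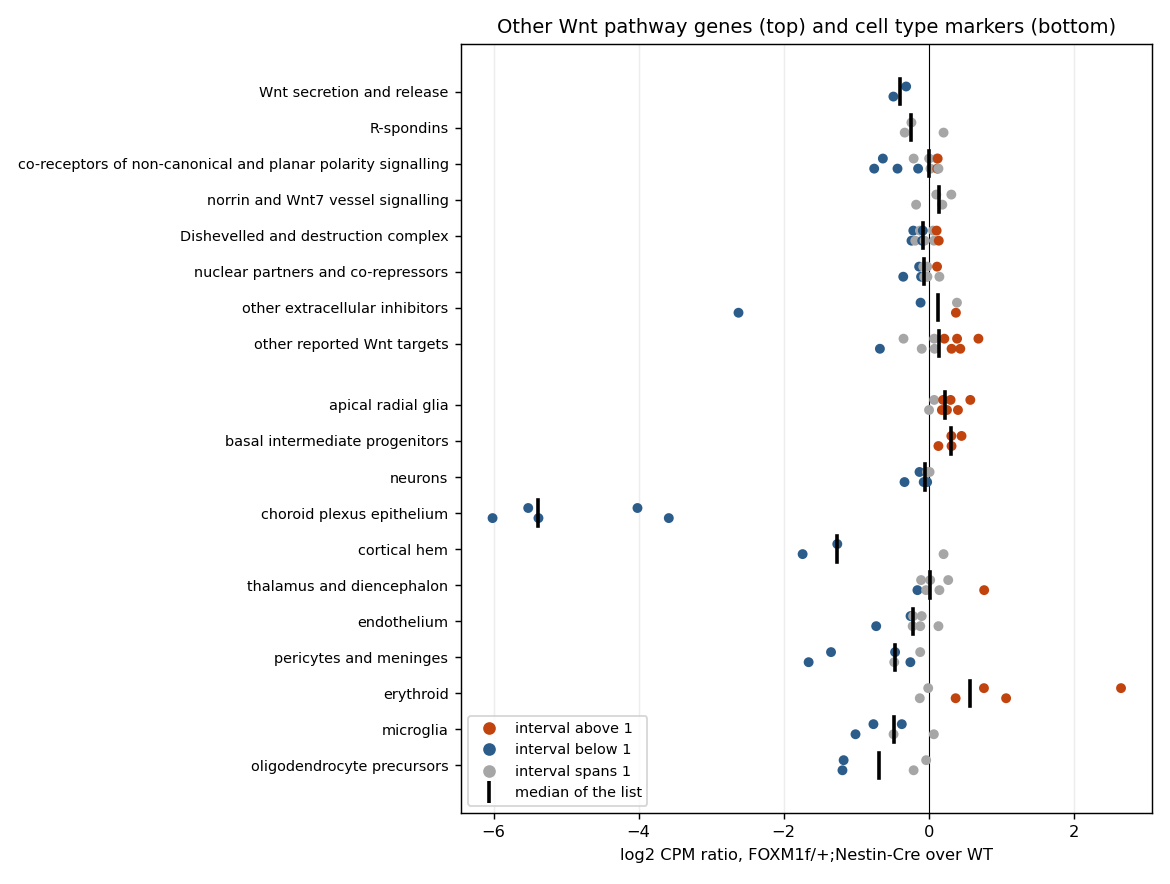
Points are log2 CPM ratios, FOXM1 over WT library, of genes averaging 1 CPM or more in lists of other Wnt pathway genes (top) and cell type markers (bottom), coloured by whether the counting interval lies above 1, below 1 or spans it. Black bars are list medians. Choroid plexus markers lie farthest left, progenitor markers lie right of 0 and both Wnt secretion genes lie left of it.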

How the data were processed

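The members and gene lists were chosen with earlier results of these data known. Brain RNA of embryos was sequenced, and the samples were grouped by their genotype label. The submitters' processing notes name HTSeq 0.6.0, TopHat2 2.0.12 and Bowtie2 2.2.3 and the build mm9, and no source used here gives the strand setting or annotation release. Of the 49 members, 44 had the start and end of GENCODE M21 (GRCm38), so coordinates are read as that build, and exon lengths of the other 5 (Wnt7b, Fzd6, Fzd8, Apc, Apcdd1) are less sure. In that annotation 11 members, Wnt7b, Lef1, Axin2, Ctnnb1, Tcf7l1 and Notum among them, share exon bases with a gene on the opposite strand, and without strand their reads cannot be told apart.

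The deposited table holds raw read counts and, per the file headers, normalized values; these deposited values are CPM, since dividing them by the counts gives one constant in each column. Genes at 0 reads were given 0.5 reads there, and raw counts were used here instead. The deposited fold change is the ratio of the CPM columns and the deposited log2 value its logarithm. The deposited p-values compare 1 column with 1 column. A planned edgeR test needs replicates and was not run. Ratios have exact conditional 95% intervals of 2 Poisson rates, and pairs of relatives a conditional odds ratio. Both cover counting error only, since each genotype has 1 column. Reads carry no molecular identifiers, so copies of a molecule cannot be told from separate molecules, which these intervals do not allow for. Floors are 3 counts per library, which is 0.168 CPM for FOXM1f/+;Nestin-Cre and 0.171 CPM for WT. Genes averaging 1 CPM or more were compared, and those at least 2-fold apart were counted. Values are given for every member; from each list of other pathway genes up to 3 are named, those with the largest ratios among genes whose interval excludes 1, or, where none does, the gene of highest mean CPM. The alternatives were TMM and RLE scaling with edgeR 4.0.16 in R 4.3.3, totals without some genes, other minimums, 1.5-fold and intervals. Scripts used SciPy 1.17.1, pandas 2.3.3, NumPy 2.4.6 and Matplotlib 3.10.9 under Python 3.11.15, and were tested on simulated data.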

Additional observations from a re-analysis of the deposited data

How the results depend on the processing

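Scaling by TMM or RLE factors, or by totals without sex-linked, erythroid and choroid plexus genes, left 0 members at least 2-fold higher and 2 lower, with all genes at 76 to 90 higher and 240 to 266 lower. It shifted all log2 ratios by at most 0.03. Under these factors the intervals of Sfrp2 (1.19 by TMM and by RLE) and Apcdd1 (1.08 or 1.09) moved above 1, and under RLE that of Nkd2 (0.798) reached 1. The counts depended on the minimum, by construction of fewer or more genes compared. With no minimum 1 member was at least 2-fold higher and 7 lower, as were 975 and 1946 of all genes. With at least 1 CPM in both libraries 1 member was lower, Wif1 no longer being compared, and 25 and 108 of all genes were higher and lower. At a mean of at least 10 CPM 0 members were lower, and 6 and 20 of all genes were higher and lower. With 1.5-fold in place of 2-fold the counts were 2 members higher and 3 lower, and 369 and 762 of all genes. By intervals off 1 they were 12 and 4 members, and 2398 and 2801 of all genes. The members' median log2 ratio stayed between 0.06 and 0.14 in the scalings and minimums tried.

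No paired analysis was possible because each genotype has 1 column. Leaving out a replicate and DESeq2 were not run for the same reason. Depth limits the members with few reads: the interval of Wnt10a, with 23 and 15 reads, covers ratios from 0.753 to 3.11.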

Other observations

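The members lie on 17 of the chromosomes, and chromosome 11 holds 8 of the 49 (16.3%), where 8.02% of the protein-coding genes of the table lie. Wnt6 and Wnt10a are neighbours on chromosome 1, 6.19 kb apart, and had 1 and 23 reads in the FOXM1 library and 3 and 15 reads in the WT library. The authors' deposited table marks 6 members as significant, Sfrp4 as higher and Wnt4, Wif1, Notum, Wnt11 and Wnt2 as lower. Their p-values in the authors' deposited table range from 0.000671 for Wnt4 to 0.0102 for Wnt2 and compare 1 column with 1 column. Several unmarked members had smaller deposited p-values than all 6, Wnt7b and Apc among them, at ratios nearer 1 (1.15 and 0.880). The mark therefore does not single out the members with the smallest deposited p-values. None of the 6 marked members had more than 60 reads in a library. The share of all genes that the authors mark as significant was not counted here.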
